A study of Drosophila melanogaster with 2 samples.

Results

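The 408 intronic peaks of eGFP-tagged Ham away from annotated start sites made up 408 of the 1421 pooled peaks on the main chromosome arms and of 1495 pooled peaks in all. They were the peaks whose summit lay more than 500 bp from every annotated start site, inside an annotated gene body and in no exon of any transcript. Beyond membership of the pooled list, no signal value entered this choice. Chromatin was taken from whole Drosophila melanogaster embryos of 0 to 24 hours, from flies of the ham-GFP strain, whose transgene makes Ham fused to eGFP, and was precipitated with an antibody to GFP, per the labels. There were 2 biological replicates of this single group, so no treatment, stage or genotype was compared. The material mixed every cell type and all embryonic stages, so a low peak in many cells cannot be told apart from a high peak in few cells.

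Ham, the product of hamlet, is a zinc finger protein of the PR domain family, related to mammalian PRDM3 and PRDM16. In the fly it is known as a switch between neuron and accessory cell fates in external sensory organs and as a regulator of dendrite branching and of olfactory neuron diversity. Introns of Drosophila genes often hold enhancers, and the first intron, close to the promoter, is a common place for them. A ChIP-seq peak marks where fragments were recovered and does not show that the site acts as an enhancer.

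The lists used were a ranked list of candidate regions on genome build dm6 and the thresholded lists taken from such rankings by reproducibility. A candidate region is said here to have passed where it is in the pooled thresholded list. The height of a peak is the deposited signal value, which has no stated unit, and the sources do not say that the replicates share a scale. Read depth is unknown here.

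Windows of 101 bp centred on the summit are shown for 5 intronic peaks. These were the highest that overlapped a peak of both replicates, outside the right arm of chromosome 2. Base composition at the summits is described further on. All are written on the plus strand of dm6, from the RefSeq sequence, 5′ to 3′. Capitals mark matches, on either strand, to the 12 words of 6 bases that were more frequent at the summits than beside them. The window in CG11050 is chr2L:6612659-6612759, that in CG32772 is chrX:4910307-4910407, that in Trl is chr3L:14759483-14759583, that in CG9663 is chr2L:3302156-3302256 and that in Tlk is chrX:3742172-3742272.
CG11050: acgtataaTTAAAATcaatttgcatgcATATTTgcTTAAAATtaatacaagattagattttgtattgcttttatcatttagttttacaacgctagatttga
CG32772: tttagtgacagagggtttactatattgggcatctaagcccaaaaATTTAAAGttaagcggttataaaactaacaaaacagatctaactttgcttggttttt
Trl: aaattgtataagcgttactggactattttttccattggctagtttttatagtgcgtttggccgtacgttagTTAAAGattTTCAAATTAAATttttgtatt
CG9663: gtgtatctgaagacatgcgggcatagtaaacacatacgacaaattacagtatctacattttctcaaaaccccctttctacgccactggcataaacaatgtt
Tlk: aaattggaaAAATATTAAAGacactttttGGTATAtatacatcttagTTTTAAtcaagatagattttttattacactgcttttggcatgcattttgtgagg
Capitals are present in every one of these windows except that of CG9663. Its 60.4% A+T was the lowest of the 5, and CG11050 had the highest, 77.2%.

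The highest intronic peaks lay mostly in first introns, and their hosts included genes for chromatin proteins and transcription factors as well as genes known only by a CG number. The highest of all was in CG11050, with 214 in replicate 1 and 802 in replicate 2, and a pooled signal value of 1036. Its summit lay in an intron of 140 bp, 1022 bp from the nearest start site. The peak itself, of 323 bp, reached past both ends of that intron. HmgZ, which encodes an HMG box protein that binds DNA with little sequence preference, had 280 in replicate 1 and 530 in replicate 2. This summit also lay in the neighbouring gene HmgD, for a closely related HMG box protein, so the host cannot be told apart. Adf1, a transcription factor gene named for the Adh promoter, had 217 in replicate 1 and 400 in replicate 2. In each of these genes replicate 2 was the higher.

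Trl encodes GAGA factor, which binds GA repeats at promoters and enhancers. Its intronic peak had 169 in replicate 1 and 362 in replicate 2, with a pooled value of 545, and lay in an intron of 3233 bp, 1516 bp from the nearest start site. Tlk, the Tousled-like kinase of chromatin assembly, had 79.9 in replicate 1 and 322 in replicate 2. The peak of chif, which encodes the Dbf4-related activator of the Cdc7 kinase, had 120 in replicate 1 and 247 in replicate 2, and its summit also lay in Hyls1. The 3 peaks were all higher in replicate 2, and by the most in Tlk.

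Genes of signalling and of the nervous system were also among the 20 highest that overlapped a peak of both replicates. The peak in norpA, the phospholipase C of fly phototransduction, had 92 in replicate 1 and 229 in replicate 2. KCNQ, a voltage-gated potassium channel gene, had 51.4 in replicate 1 and 211 in replicate 2. NFAT, a transcription factor gene, had 75.9 in replicate 1 and 218 in replicate 2. In all 3 replicate 2 was the higher. The peak in mub, a gene for a KH domain RNA-binding protein, had 112 in replicate 1 and 156 in replicate 2. The peak in rl, the ERK kinase gene, was the exception to the order of the replicates, with 151 in replicate 1 and 103 in replicate 2. It was also 25955 bp from the nearest start site, the farthest of the 20, and had 41.6% A+T, the lowest of the 20. Of its 101 bp window, 84.2% was repeat-masked in the genome sequence, the highest share of the 20.

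Others of these 20 were in CG32772, CG9663, CG3726, CG32486, CG9837, CG12769, CG32767 and LPCAT, a lysophospholipid acyltransferase gene. Their pooled signal values lay between 599 in CG32772 and 229 in CG32767. Of the 20, 17 lay in a first intron, 16 in the longest intron of the host, 16 within 2000 bp of a start site and 8 on X. Only 1 of the 20, that in rl, had the width of 336 bp that 380 of the 408 intronic peaks shared. The 27 intronic peaks narrower than 336 bp had signal values of 179 to 1036, and 25 of them overlapped a peak of both replicates.

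The heights of all 408 intronic peaks ran from 3.05 to 1036, with a median of 86.8. Of the 25 peaks under a signal value of 30, 24 were second entries that overlapped a higher intronic peak, and joining overlapping peaks left 384. Against promoter peaks, whose summit lay within 500 bp of a start site, the intronic peaks were lower: 44.1% (180 of 408; 95% Wilson interval 39.4 to 49) lay above the median signal of the main-arm list, 91.6, against 60% (441 of 735) of promoter peaks. The difference was 15.9 percentage points (p = 1.17e-06 by a two-sided exact test of Fisher, adjusted by Benjamini-Hochberg over 9 class tests). Intergenic peaks, outside every gene, had 40.9% above that median, and their difference from the intronic ones did not pass the threshold (adjusted exact p = 0.674). Exonic peaks had 16.7%, fewer than the intronic ones (adjusted exact p = 1.15e-06).

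Few intronic peaks were called in replicate 1 alone and most were called in replicate 2. Replicate 1's own list overlapped 93 of the 408 intronic peaks (22.8%), where 28.9% of all main-arm peaks were overlapped. Replicate 2's list overlapped 256 (62.7%), where the share over all main-arm peaks was 65.7%. Both lists overlapped 80 (19.6%), 176 were in replicate 2's list only, 13 in replicate 1's only and 139 in neither. Over all main-arm peaks, 25.3% overlapped both lists. The 80 peaks compare with 242 of 735 promoter peaks (32.9%), which was a higher share than among intronic peaks (adjusted exact p = 4.27e-06). The conservative list held 189 of the 408 (46.3%), where it held 50.3% of all main-arm peaks and 57% of promoter peaks (adjusted exact p = 0.000847 against promoter peaks).

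The classes were also compared separately above the list's median signal and at or below it. Among peaks above the list's median signal, 43.3% of intronic peaks and 52.8% of promoter peaks overlapped both replicates' lists (Fisher's exact test, adjusted over 4 tests, p = 0.136). The conservative list held 81.1% of these intronic peaks and 84.6% of these promoter peaks (adjusted exact p = 0.35). Among the lower peaks, 0.877% of intronic and 3.06% of promoter peaks overlapped both lists (adjusted exact p = 0.248). The shares in the conservative list were 18.9% for these lower intronic peaks and 15.6% for the promoter peaks (adjusted exact p = 0.35). Heights were not matched within either part, so these p-values do not show that the classes are alike at like height.

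A region of each replicate's ranked list held the summit of 347 of the intronic peaks. Their signal values had a median of 29.2 in replicate 1 and 62.4 in replicate 2, and replicate 2 was higher in 334 of the 347. Over all candidate regions the medians were 10.6 in replicate 1 and 16 in replicate 2. Across these peaks, which come from the same 2 libraries and are not independent, the rank correlation (Spearman's rho) was 0.411 and Pearson's r of the log2 values was 0.625. The peaks in both lists had 34.2 to 280 in replicate 1, those in replicate 2's list only had 2.89 to 43.9, and those in neither list had 11.6 to 41.5.

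**Figure D1:**
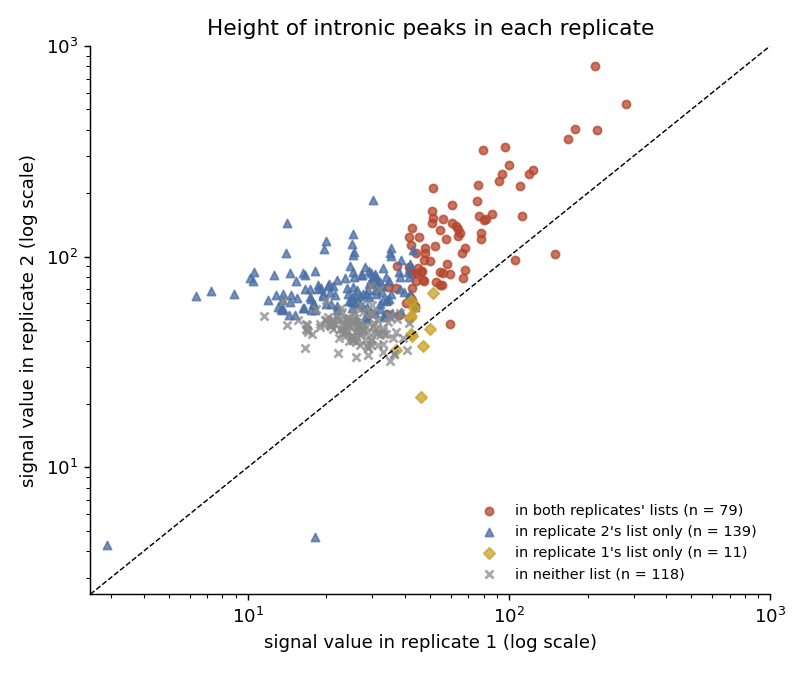
Signal value of each of the 347 intronic peaks found in both ranked lists, replicate 1 on the horizontal and replicate 2 on the vertical axis, both log scales. Points above the dashed line of equal values, 334 of 347, were higher in replicate 2, and the 79 peaks in both thresholded lists lie at the upper right.

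Intronic candidate regions passed less often than all other main-arm regions pooled and more often than intergenic ones. Of 54753 intronic candidate regions, 408 passed, or 0.745% (0.677 to 0.821), where 0.964% of all main-arm candidate regions passed. The other main-arm regions passed at 1.09% (Fisher's exact test, two-sided, p = 1.82e-11). Promoter regions passed at 3.46%, intergenic regions at 0.494% (exact p = 3.42e-06 against intronic) and exonic regions at 0.286%. The median signal of the candidate regions was 20.7 for intronic, 23.5 for promoter and 21.1 for intergenic ones.

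Distance from a start site went with the passing share in introns and between genes alike. Within 500 to 1000 bp, 2.18% (1.79 to 2.65) of intronic regions passed and 1.35% (0.991 to 1.84) of intergenic ones. At 1000 to 2000 bp the shares were 1.13% for intronic and 0.665% for intergenic regions. At 2000 to 5000 bp they were 0.796% for intronic and 0.459% for intergenic regions. Beyond 20000 bp they were 0.288% (0.19 to 0.436) for intronic and 0.335% (0.207 to 0.544) for intergenic regions, with overlapping intervals. The median height of intronic peaks was 99.6 in the nearest bin, 77.9 between 5000 and 20000 bp and 85.5 beyond 20000 bp. At the edge of the rule, the peaks just inside were those of Lmpt at 501 bp, with a signal value of 68.3, and of pAbp and CAP at 506 bp, with 100 and 87. Just outside were Moe at 499 bp, with 80.3, ph-p at 497 bp, with 630, and CG43736 at 496 bp, with 95.2.

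**Figure D2:**
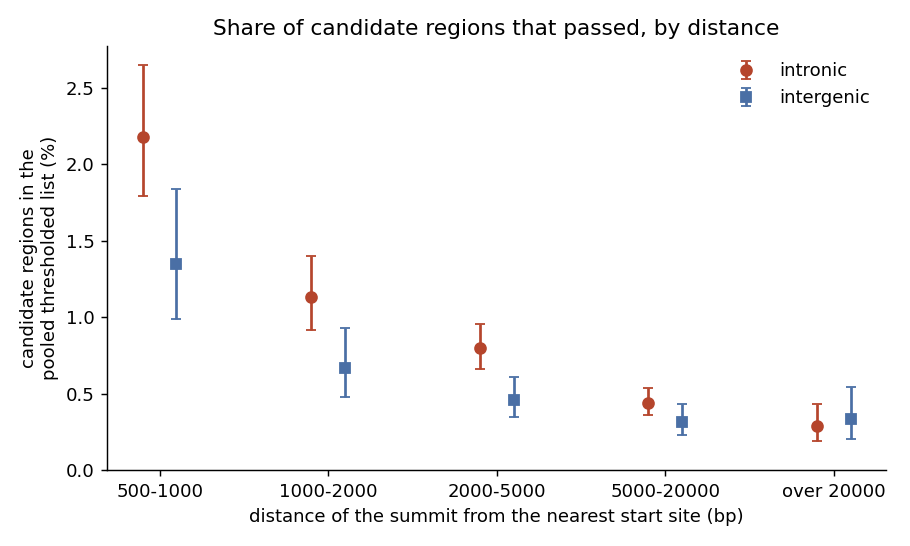
Percent of candidate regions in the pooled thresholded list by distance of the summit from the nearest start site, for intronic (circles) and intergenic (squares) regions, with 95% Wilson intervals. The intronic share was 2.18% in the nearest bin and 0.288% in the farthest, and the intronic and intergenic intervals do not touch between 2000 and 5000 bp.

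Within their hosts the peaks lay in the longest intron more often than the intronic regions that did not pass. Of the 408, 315 (77.2%; 72.9 to 81) had a summit in the longest annotated intron of the host, against 60.9% of the 54345 regions that did not pass (two-sided Fisher's exact p = 3.79e-12). The first intron of at least 1 transcript held 283 (69.4%; 64.7 to 73.6), against 44.7% of regions that did not pass. The first-intron share was higher among peaks in every distance bin, with 81.4% against 68.3% within 500 to 1000 bp and 51.6% against 38.7% between 5000 and 20000 bp. The longest-intron share was 77.3% against 67.9% in the nearest bin and 75.3% against 60.9% between 5000 and 20000 bp. The first-intron shares were not tested.

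**Figure D3:**
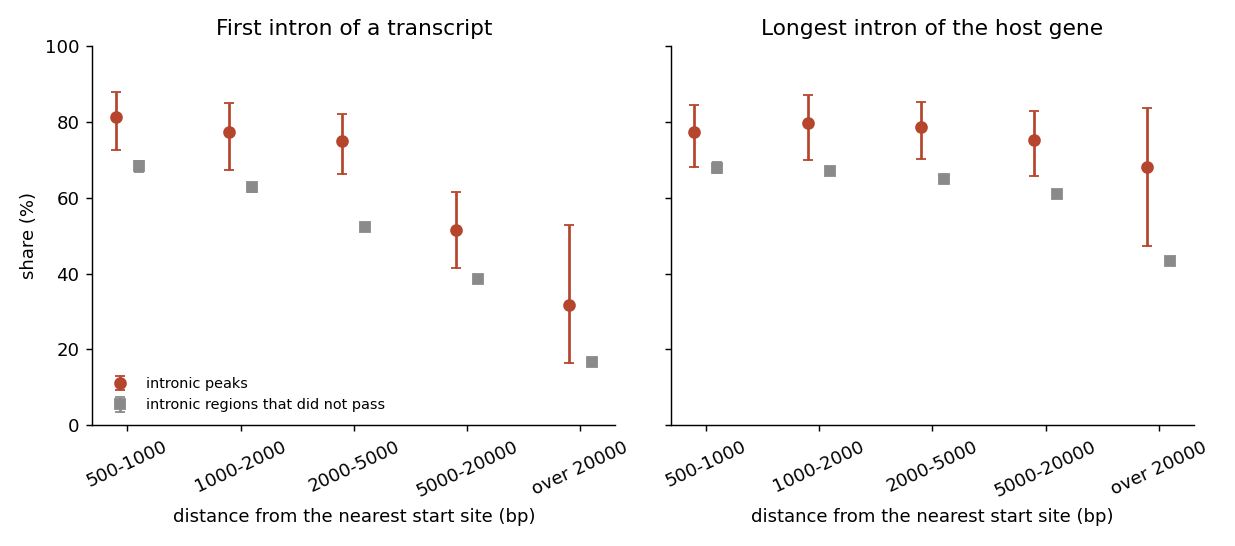
Share of intronic peaks (circles) and of intronic candidate regions that did not pass (squares) in a first intron (left) and in the host's longest intron (right), by distance from the nearest start site, with 95% Wilson intervals. Peaks lie above the regions that did not pass in all 5 bins of both panels.

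The shortest annotated intron of the host over the summit had a median of 9376 bp for peaks and 13460 bp for regions that did not pass. The longest-intron share counted any intron over the summit, so it and these lengths can describe different introns. Host genes were also shorter for peaks, with a median of 26780 bp against 46120 bp. The median distance from the nearest start site was 2460 bp for peaks and 5468 bp for regions that did not pass. That start site belonged to the host, or to another gene with an intron over the summit, for 311 peaks (76.2%). The share was 55.3% for regions that did not pass. For 194 peaks (47.5%) at least 1 start site of the host lay downstream of the summit, so that the peak was in an intron of a longer transcript and upstream of a shorter one, against 29.4% of regions that did not pass. Annotated transposable elements held 1 peak, in CG33298, and 1.08% of regions that did not pass.

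By arm, 111 peaks (27.2%; 23.1 to 31.7) lay on X, against 19.8% of the intronic regions that did not pass and 15.9% of promoter peaks. Arm 3R held 75 (18.4%; 14.9 to 22.4), against 27% of regions that did not pass. In the replicates' own lists X held 39.4% of 94 intronic peaks of replicate 1 and 29.9% of 281 of replicate 2.

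The 408 peaks lay in 314 host genes, 398 of them in protein-coding genes and 10 in noncoding RNA genes. Of the 4149 genes with an intronic candidate region, these 314 are 7.57%. Most hosts, 252, had 1 peak, 42 had 2 and 20 had 3 or more, which together held 72 peaks. A host had a median of 17 intronic candidate regions, where the median over the 4149 genes was 3. Each promoter peak was assigned only to the gene of its nearest start site. By that rule 41 hosts had a promoter peak (13.1%), against 265 of the 3835 genes with an intronic candidate region and no intronic peak (6.91%).

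Raf, the kinase that links Ras to the MAP kinase cascade, held the most, 7 peaks in 1 intron of 43637 bp on X. They spanned 7756 bp, and 7 of the 37 candidate regions of Raf passed (18.9%). The highest, 2256 bp from the start site, had 67.9 in replicate 1 and 110 in replicate 2. The next, at 5221 bp, had 57.8 in replicate 1 and 92.6 in replicate 2. These 2 were called in both replicates, 2 more in replicate 2 only and 3 in neither, and 2 of the 7 overlapped each other.

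Tlk held 5 peaks in 3 introns, all of them a first intron of some transcript, and 4 were called in replicate 2. Beside the highest, at 411, they had signal values of 68.1 to 134. CHES-1-like, a forkhead transcription factor gene on X, held 5 peaks of 17 candidate regions (29.4%), with signal values of 110 to 218. All 5 were called in replicate 2, 3 of them in both replicates, and all 5 were in the conservative list. Its highest peak had 60.4 in replicate 1 and 177 in replicate 2.

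A further 4 genes, all for transcription regulators, held 4 peaks each. Hr4, a nuclear receptor gene of the ecdysone response, had signal values of 71.2 to 127, with 2 peaks called in both replicates. shn, which encodes a zinc finger protein of the Dpp pathway, had 69 to 116, and 1 of its peaks was in replicate 2's list and none in replicate 1's. sbb, a corepressor gene, had 4 peaks in 1 intron of 49364 bp with values of 74.9 to 116, all called in replicate 2 only. hth, the homeobox gene whose product works with Extradenticle, had 4 peaks 16554 bp or farther from any start site, with values of 3.78 to 100, the lowest of them overlapping another.

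HmgZ had 2 more peaks beside its highest, with 96.1 and 107, and NFAT had 2 more, with 210 and 60.8. simj, the gene of the p66 subunit of the NuRD complex, had 3 peaks of 82.2 to 215 in its first intron. sick, a gene known for its part in axon growth, had 3 of 83.5 to 156, 2 of them in both replicates. prage had 3 of 84.7 to 155, all called in replicate 2 only.

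**Figure D4:**
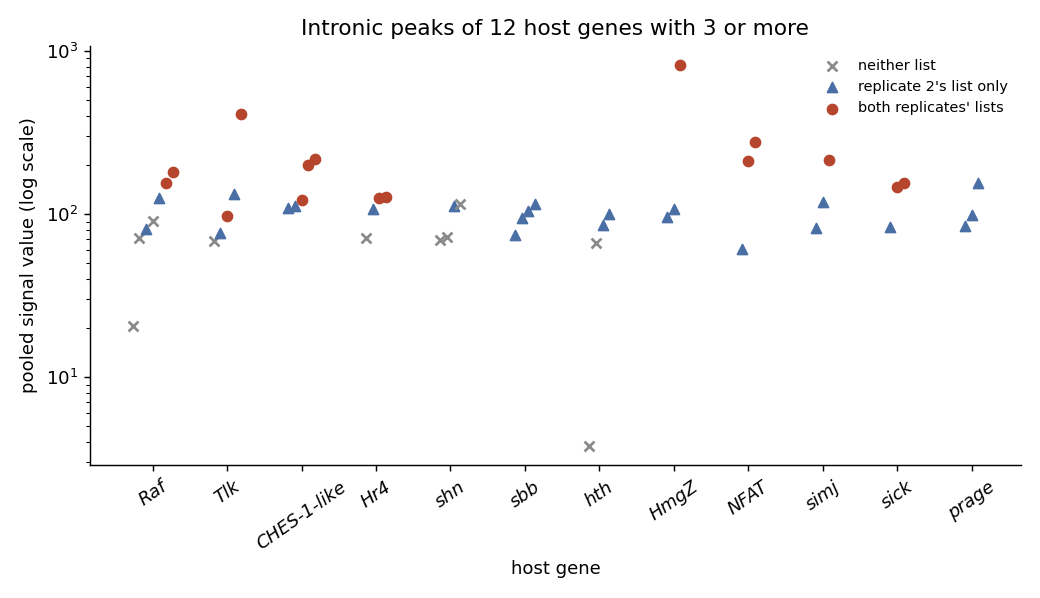
Pooled signal value (log scale) of each intronic peak in 12 host genes, the 7 with 4 or more and, of the 13 with 3, the 5 of highest peak, with the marker showing which replicates' own lists overlapped it. Raf has 7 points between 20.5 and 181, and every point of sbb and prage is in replicate 2's list only.

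hamlet itself held 2 intronic peaks of 30 candidate regions. The higher had 19.2 in replicate 1 and 71 in replicate 2, lay 1106 bp from a start site in an intron of 2061 bp and was called in replicate 2 only. The other had 23.9 in replicate 1 and 42.6 in replicate 2, lay 1049 bp from a start site in an intron of 1945 bp and was called in neither. Their pooled values, 87.8 and 62.8, stand near and below the median of the intronic peaks.

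Counts over 13 gene lists are set beside 7.57% of genes and 0.745% of candidate regions over the whole table. No test was made on a list, and the genes of most lists had more candidate regions each than the median gene. In the EGFR and receptor tyrosine kinase list, 10 of 33 genes with a candidate region were hosts (30.3%), and 17 of 612 candidate regions passed (2.78%). The Raf peaks are 7 of these 17. The hosts, in full and by highest peak, were rl, Raf, edl, drk, aos, ths, aop, pnt, sty and jeb.

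The 10 hosts include ligands, an adaptor, kinases, inhibitors and nuclear factors, and no receptor gene. Among ligands, ths encodes an FGF and its peak had 37.8 in replicate 1 and 84.7 in replicate 2, and jeb, the ligand of Alk, had 36.5 and 34.7 in replicates 1 and 2. Inside the cell, drk encodes the adaptor that couples receptors to Ras, and its peak had 54.6 in replicate 1 and 73.7 in replicate 2. Among the inhibitors, aos, a secreted antagonist of EGFR, had 41.7 in replicate 1 and 85 in replicate 2, and sty, the Sprouty gene, had 28.6 and 51.4 in replicates 1 and 2. The peaks of rl, edl, drk and aos, and 2 of Raf, were called in both replicates. Among the nuclear factors, edl, whose product binds Yan and Pointed, had 68 in replicate 1 and 86.6 in replicate 2. aop, which encodes the repressor Yan, had 30.4 and 80.1 in replicates 1 and 2. pnt, the ETS activator gene, had 2 peaks with pooled values of 89 and 75.3. Of the 17 peaks, 13 were called in replicate 2, 6 in both replicates and 13 in the conservative list.

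In the ecdysone list, 6 of 13 genes were hosts (46.2%) and 10 of 615 candidate regions passed (1.63%), with a median of 46 candidate regions per gene. Beside Hr4, the hosts were Eip75B, with 95.1 and 62, br, with 90.8, EcR, the receptor gene itself, with 83.4, the coactivator gene tai, with 78.1, and Eip74EF, with 62.6. None of these peaks outside Hr4 was called in replicate 1. In the Wnt, Hedgehog and Dpp list, 6 of 22 genes were hosts (27.3%), and 10 of 701 candidate regions passed (1.43%). arr, the Wnt coreceptor gene, had 118, shn had 116 and Mad, the Smad of the Dpp pathway, had 102, and no peak of this list was called in both replicates.

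The lists of neural genes lay on both sides of the 0.745% of all candidate regions. In the neuronal excitability and synapse list, 6 of 25 genes were hosts (24%), and 6 of 1363 candidate regions passed (0.44%). Its highest were mub with 276, elav, the pan-neuronal RNA-binding protein gene, with 104, and dnc, the cAMP phosphodiesterase gene, with 97.7. In the axon guidance and adhesion list, 4 of 32 genes were hosts (12.5%) and 4 of 1645 candidate regions passed (0.243%): side with 102, Sema1a with 71.5, Dscam1 with 66.9 and Ten-m with 65.2. In the sensory organ list, elav, ham and ct, the homeobox gene of external sensory organs, were the hosts among 16 genes (18.8%), ct had 82.9, and 4 of 286 candidate regions passed (1.4%). In the neuroblast list brat had 164, mamo 140 and hth 100, 3 of 18 genes (16.7%), and 6 of 620 candidate regions passed (0.968%). N, the Notch receptor gene, had 59.4 in replicate 1 and 47.8 in replicate 2 and was called in both, and with mam, at 68.2, made 2 of 9 genes of the Notch list (22.2%) and 2 of 212 candidate regions (0.943%).

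The remaining lists had 2 or 3 hosts or none. The homeobox and segmentation list had hth, cad with 72.8 and Ubx with 63.2 among 22 genes (13.6%). The mesoderm and muscle list had the integrin gene mew with 89.1, how with 73.6 and Mef2 with 63.8 among 24 genes (12.5%). The cytoskeleton list had dia with 73.5 and cno with 67.1 among 27 genes (7.41%). The trachea and barrier list had Mcr with 97 and ush with 86 among 18 genes (11.1%). None of the 3 ribosomal protein genes with a candidate region was a host.

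The summits of the higher peaks stood in A+T-rich DNA. In windows of 101 bp centred on the summit, A+T was 62.9% over all 408 peaks, against 58.7% in windows centred 500 bp away on either side. These flank windows were not limited to introns, so some can hold exonic or promoter sequence. Over the 180 peaks above the list's median signal it was 67.2%, against 58.7% in their flanks, and over the 228 lower peaks 59.5%, against 58.7%. Promoter peaks had 64.2%, against 55.3% in their flanks. Those above the list's median signal had 67.4%, against 54.9%, and the lower ones 59.4%, against 55.9%. In CG11050, Tlk, Trl, CG32772 and CG9663, whose windows are printed above, the share was 77.2%, 74.3%, 71.3%, 68.3% and 60.4%. The raised A+T of the higher peaks stood within about 100 bp of the summit. At 140 bp before and after the summit the higher peaks had 54.39% and 54.71%, below their flanks at 500 bp. The lower peaks had 55.03% and 53.99% there and 58.46% at the summit, so they too rose against the nearby sequence.

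**Figure D5:**
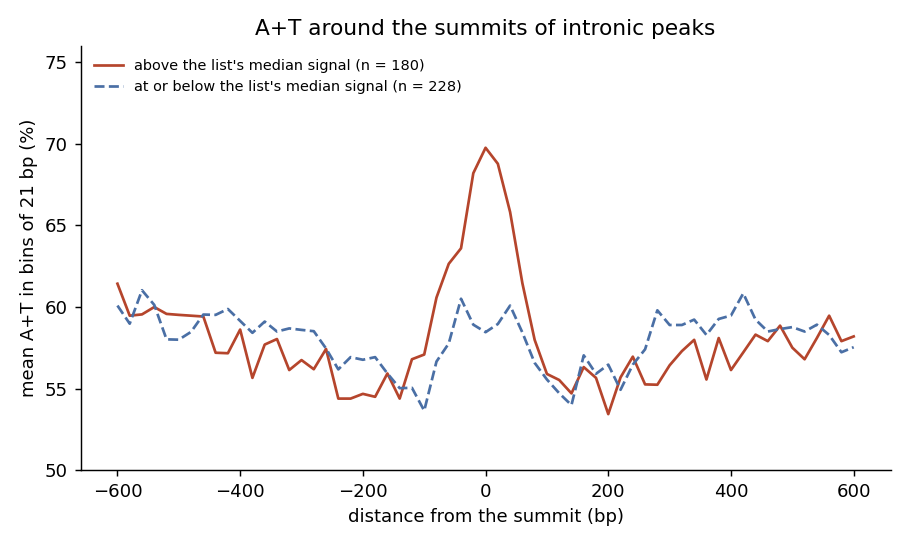
Mean A+T (percent, bins of 21 bp) by distance from the summit, for the 180 intronic peaks above the list's median signal (solid) and the 228 at or below it (dashed). The solid line reaches 69.76% at the summit, where the dashed line is at 58.46%.

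Of 2080 words of 6 bases, with reverse complements joined, 14 (0.673%) differed between summit and flank windows after Benjamini-Hochberg adjustment (Fisher's exact test, two-sided). The flank windows, as for A+T, were not limited to introns. Of the 14 words, 12 were more frequent at summits, 5 of them made only of A and T. TTTAAA was in 77 of 408 summit windows (18.9%), against 77 of 816 flank windows (9.44%; adjusted exact p = 0.01). It was in 21.1% of promoter summit windows and in 6.78% of intronic regions that did not pass. Of the A and T words, TTAAAA was in 26% of summit and 15.6% of flank windows, ATTTAA in 25% and 14.7%, ATTTTA in 25% and 15% and AAATAT in 27% and 17.5%. AATTCA was in 14.2% of summit and 6.25% of flank windows, TTCAAA in 16.7% and 9.31%, CTTTAA in 14.7% and 7.72%, ATATGA in 11.8% and 5.51%, TATGAA in 11.8% and 5.64% and GTTTCA in 9.56% and 4.17%. The adjusted p of these words, by Fisher's exact test, lay between 0.01 and 0.0466. The TTTAAA difference did not pass the threshold among peaks more than 1000 bp from a start site (17% against 10.1%, adjusted exact p = 0.47). Nor did it in replicate 2's own list (20.3% against 11.9%, adjusted exact p = 0.0784) or in replicate 1's (19.1% against 12.2%, adjusted exact p = 0.854). The 2 less frequent were CACGAA, in 4 summit windows against 44 flank windows (adjusted exact p = 0.0186), and ACGTCA, in 1 against 27 (adjusted exact p = 0.0478). CACGAA was also past the threshold with protein-coding genes only and against regions that did not pass, and in none of the other 7 alternatives run, with adjusted exact p-values of 0.137 to 1 there. Base composition differed beside these words, as given above, and its part in them was not tested.

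GGTATA was the word with G or C whose shares differed by the largest factor among those more frequent at summits. It was in 24 of 408 summit windows (5.88%), against 12 of 816 flank windows (1.47%; adjusted exact p = 0.0142), in 4.76% of promoter windows and in 2.23% of intronic regions that did not pass. The 24 peaks lay in 24 hosts and had signal values of 4.04 to 411. Of them 16 were above the list's median signal and 9 were called in both replicates. Beside Tlk, printed above, the highest are those of NFAT, mub and Su(Tpl), a transcription elongation factor gene whose summit also lay in Mi-2, shown with the word in capitals and chosen after their values were seen. They are the plus strand of dm6 at chrX:13640453-13640553, chr3L:21880475-21880575 and chr3L:19903238-19903338.
NFAT: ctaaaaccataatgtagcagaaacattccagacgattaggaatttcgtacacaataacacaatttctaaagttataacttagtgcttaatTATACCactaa
mub: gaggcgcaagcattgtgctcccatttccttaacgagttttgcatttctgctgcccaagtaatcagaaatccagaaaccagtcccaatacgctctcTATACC
Su(Tpl): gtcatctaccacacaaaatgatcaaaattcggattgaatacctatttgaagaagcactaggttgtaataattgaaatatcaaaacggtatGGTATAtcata
The word reads TATACC on this strand in NFAT and mub and GGTATA in Su(Tpl), and its first base lay 40 bp after the summit in NFAT and Su(Tpl) and 45 bp after it in mub. Among peaks more than 1000 bp from a start site the word was in 6.11% of summit and 1.45% of flank windows, a difference of like size that did not pass the threshold (adjusted exact p = 0.116). The shares were 5.34% against 1.78% in replicate 2's own list (adjusted exact p = 0.164) and 6.38% against 1.6% in replicate 1's (adjusted exact p = 0.693). In the conservative list they were 7% against 1.25% (adjusted exact p = 0.0304). A split by height was added after the data were seen. Above the list's median signal the shares were 8.89% against 1.11% (adjusted exact p = 0.00365). Among the lower peaks they were 3.51% against 1.75%, which did not pass the threshold.

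A further 12 words were looked up for known factors or repeats, and a 13th, TTAAAA, is the A and T word already given above. None of the 12 differed between summit and flank windows past the threshold (Fisher's exact test, adjusted over the 13 words), and the lowest unadjusted p among them was 0.169. The GATA core GATAA was in 22.1% of summit windows, 19.9% of flank windows and 21.9% of promoter windows (adjusted exact p = 0.8). It was in 15.8% of intronic regions that did not pass. The longer core AGATAA was in 8.82% of summit windows, 7.11% of flank windows and 4.49% of those regions. The CA repeat unit CACACA went the other way, in 7.35% of summit windows and 11.7% of those regions. The tests over the 13 words used flank windows only. GAGAG, the core of the GAGA factor site, was in 13.7% of summit windows and 16.5% of flank windows (adjusted exact p = 0.796). The word GACAAGATA, of the first zinc finger domain of mammalian EVI1 and PRDM16, was in none of the 408 summit windows, which allows a share of up to 0.735%, and in none of the flank windows. GAAGATGAG, of the second domain of EVI1, was in 1 summit window and 1 flank window. The element TATCGATA of many housekeeping promoters was in none of the summit windows, against 2 flank windows and 2.31% of promoter peaks.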

How the data were processed

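Peak lists of Ham-eGFP chromatin were analysed for whole embryos in 2 biological replicates, with coordinates on dm6, per the labels. Per the deposited file descriptions, peaks had been ranked by their irreproducible discovery rate and then thresholded, for each replicate and for both pooled. The sources used here do not give the aligner, peak caller or control. Signal values are the authors' own, as deposited, with no stated unit or scale, and read depth is unknown.

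Summits were placed with Ensembl release 115 genes, all biotypes except transposable elements, on arms 2L, 2R, 3L, 3R, X, Y and 4. All peaks ended within the arm lengths of RefSeq Release 6. Where a summit lay in introns of more than 1 gene (26 peaks), the host was the protein-coding gene, then the shorter one. A summit counted as in the first or longest intron where any annotated intron holding it was a first intron of a transcript or the longest of the gene. Intron lengths are those of the shortest annotated intron of the host that held the summit. Overlaps needed at least 1 bp. Shares were compared by Fisher's exact test (two-sided) with Benjamini-Hochberg adjustment within each family, at a threshold of 0.05, in Python 3.11.15 with scipy 1.17.1. The word test was tried on simulated independent windows with the same base composition in both sets. That simulation cannot show how the test behaves where composition differs, as it does between these summit and flank windows. Wilson intervals (95%) cover only counting error, as does the limit that a count of 0 allows (3 counts). Peaks and windows are not independent replicates, so p-values concern the lists, not how embryo collections vary.

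The peak class, the gene lists and the words were chosen with earlier results of these data known. Named genes are ham, the hosts of the 20 highest intronic peaks overlapping both replicates' lists, the 12 hosts with the most peaks (ties by highest signal) and the 3 hosts of highest peak in each of 13 lists, and lists of hosts given in full; 1 of these hosts is not reported here. In the lists, 10 older symbols were replaced and 6 had no match. Alternatives covered the distance limit, the gene set, each replicate's own list, the conservative list, merging, overlap, reference class and window.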

Additional observations from a re-analysis of the deposited data

How the results depend on the processing

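The lower passing share of intronic regions (0.681 of that of the other main-arm regions) kept its direction and its call at a limit of 1000 bp, with protein-coding genes only, in each replicate's own list, in the conservative list and with overlapping peaks merged. Set against intergenic regions alone, an alternative added after the data were seen, the ratio was 1.51. The longest-intron excess kept its direction and call in every alternative run, with 15.3 to 16.6 percentage points in the replicates' own lists, and so did the lower share above the median signal. The lower share of intronic peaks in both replicates' lists was 9.5 points (a difference of -9.5, no longer past the threshold) among peaks above the median signal and -2.18 among the lower ones. For the conservative list the difference from promoter peaks was -3.47 points above the median and 3.21 below it, and -5.6 points against all other main-arm peaks, none past the threshold (Fisher's exact test, adjusted p = 0.35, 0.35 and 0.0606). The number of words past the threshold depended most on the choices: 1 beyond 1000 bp, 1 to 27 in the replicates' own lists, 40 in the conservative list, 32 with 100 bp on either side and 295 against intronic regions that did not pass, whose A+T was 55.4%. Added after the data were seen, it was 28 for peaks above the median signal and 0 for the others, by Fisher's exact test, with 101 at an unadjusted p under 0.05. Host genes numbered 84 to 231 in the replicates' own lists and 161 in the conservative list, which hold fewer peaks. The causes of the other shifts were not tested. No paired analysis was possible because there is only 1 group. Without read counts, no statement on depth can be made.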

Other observations

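Heights are given here by width, with no test. Peaks narrower than 336 bp had a median signal value of 278, and those of 336 bp had a median of 84.7. The single wider one was the highest peak of HmgZ, at 342 bp.

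Some peaks lay close together within 1 intron. Pak3, a gene for a p21-activated kinase, had 3 of its 4 candidate regions in the list, within 704 bp, with signal values of 5.01 to 111, and CG32795 had 3 of 8 within 812 bp, with 12.3 to 107. Both were singled out after their values were seen, and in each gene the 3 peaks formed 2 separate regions.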
